A study of Caenorhabditis elegans with 11 samples.

Results

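The cuticle of Caenorhabditis elegans is a coat of cross-linked collagens and other secreted proteins that the epidermis lays down again at every moult. Each larval stage ends when a new cuticle is made beneath the old, proteases loosen the old coat, and the animal sheds it. The genes for these proteins are transcribed in waves tied to the moulting cycle, so their messages are abundant at some hours of a larval stage and scarce at others. The genes described here were taken by name from the 6 deposited tables. They carry the prefix col-, dpy-, rol-, sqt-, bli-, mlt-, noah-, cut-, cutl-, nas-, bus-, lpr- or mam- before a number, or are called fbn-1, let-653, lon-3 or ram-4. The rule found 63 of 1106 entries, which belong to 59 of 939 different genes. All are called cuticle genes below, among them dpy-22, which meets the naming rule but does not encode a cuticle protein. Of the 63 entries, 42 are collagen entries, from 39 genes. No listed entry is a bli- or noah- gene, and fbn-1, let-653, lon-3 and ram-4 are not among the listed genes either.

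Poly(A)-enriched RNA of whole worms was sequenced after feeding RNA interference (RNAi). The clones target prp-6, prp-8 or prp-31, genes for parts of the spliceosome, the machine that removes introns. Control worms ate a clone against gfp, a jellyfish gene absent from worms without that transgene. N2, the wild-type strain, and smg-1(r861), a mutant of a kinase needed for nonsense-mediated mRNA decay (strain TR1331), each gave 4 libraries, 1 for gfp and 1 for each prp clone. These were larvae labelled L3, fed the clones for 24 h at 20 °C from a synchronized L1 start. The strain SS104 carries glp-4(bn2), a mutation that at the restrictive temperature leaves adults with few germ cells. It gave 3 libraries, for gfp, prp-8 and prp-31, from adults of day 5 kept at 25 °C, first on OP50 bacteria for 72 h and then on the RNAi clones for 48 h. The titles of the glp-4 libraries say L3 whereas their stage field says adult, and the deposited tables of this strain are headed glp-1; the stage field and the sample labels were followed. The labels record the larval stage only as L3 and do not give the position within the moulting cycle.

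Values are FPKM, fragments scaled to transcript length and library size, so levels may be set side by side between genes. Each group is 1 library, so no value has a replicate error and no test was made. A log2 fold change below is the log2 of (knockdown FPKM + 1) over (gfp FPKM + 1). Values written as n-fold also have 1 FPKM added to both levels, while ratios written as a number of times are of plain FPKM. A gene is counted as above or below gfp at a given size only from 2-fold on, unless stated. Only a lower bound on the reads per library is labelled, and the depth of each is unknown. The tables list only genes that the submitters selected, all with a P-value in the authors' deposited table, before adjustment, no higher than 0.01 for the knockdowns of a strain pooled. The table that a gene is in therefore sets which way its knockdowns lie on balance, and a gene that is at or under gfp with some clone can be in a higher table only through the others. RNA came from whole animals, where fewer cells of a type and less RNA per cell cannot be told apart. The collagens form a large family of similar genes, and the sources used here do not say how fragments matching several of them were assigned.

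In N2 larvae 40 of the genes listed as higher with knockdown were cuticle or moulting genes, which is 9.78 percent of that table, and 4 of the 66 listed as lower, which is 6.06 percent. In smg-1 larvae the numbers were 4 of 346 and 7 of 139, and in glp-4 adults 3 of 58 and 5 of 88. In the authors' deposited table for N2 the q-values of the 44 entries ran from 0.0268 to 0.288, and 2 of them were below 0.05. The authors' deposited table for smg-1 gave 0.0234 to 0.302, with 2 of the 11 entries below 0.05. For the 8 entries of glp-4 the authors' deposited table gave 0.220 to 0.911, so none was below 0.05 there.

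With prp-6 RNAi in N2 the cuticle genes of the higher table were many times more abundant than in the gfp library, with prp-31 RNAi the same genes were moderately more abundant, and with prp-8 RNAi most were at or under the gfp level. Summed over the 39 genes of the table other than col-90, the level was 2860 FPKM under gfp RNAi, 20134 under prp-6, 2351 under prp-8 and 6479 under prp-31. These sums mostly reflect abundant collagens: the 23 collagens among the 39 gave 2760, 19479, 2250 and 6295 FPKM in the same order. They include col-17, whose pooled values differ from its single libraries, as given below. The prp-6 library was at least 2-fold above gfp for 38 of the 40 genes, where 83.9 percent of all genes of the table were. With each library centred on the median of all genes of both N2 tables, this count was 16 for prp-6 and 3 for prp-31. The prp-31 library was at least 2-fold above gfp for 20 of the 40, beside 28.9 percent of the table. The prp-8 library was at least 2-fold above gfp for 3 of the 40, beside 42.3 percent of the table, and at least 2-fold below for 9, beside 11.2 percent.

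The median log2 fold change of the 40 genes was 2.56 under prp-6, −0.36 under prp-8 and 1.01 under prp-31, and over all genes of the table it was 2.05, 0.65 and 0.67. The level with prp-8 was below gfp, by any amount, for 28 of the 40, beside 31.8 percent of the table. No cuticle gene was at least 2-fold above gfp with each of the 3 clones, beside 2.69 percent of the table. Over both N2 tables together, 38 of 44 cuticle genes were at least 2-fold above gfp with prp-6 (72.2 percent of 475 genes), 3 with prp-8 (36.4 percent) and 20 with prp-31 (24.8 percent). At least 2-fold below gfp were 3 with prp-6 (13.5 percent), 11 with prp-8 (21.9 percent) and 3 with prp-31 (2.74 percent), among them col-90, which is listed at 0 with prp-31.

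**Figure D1:**
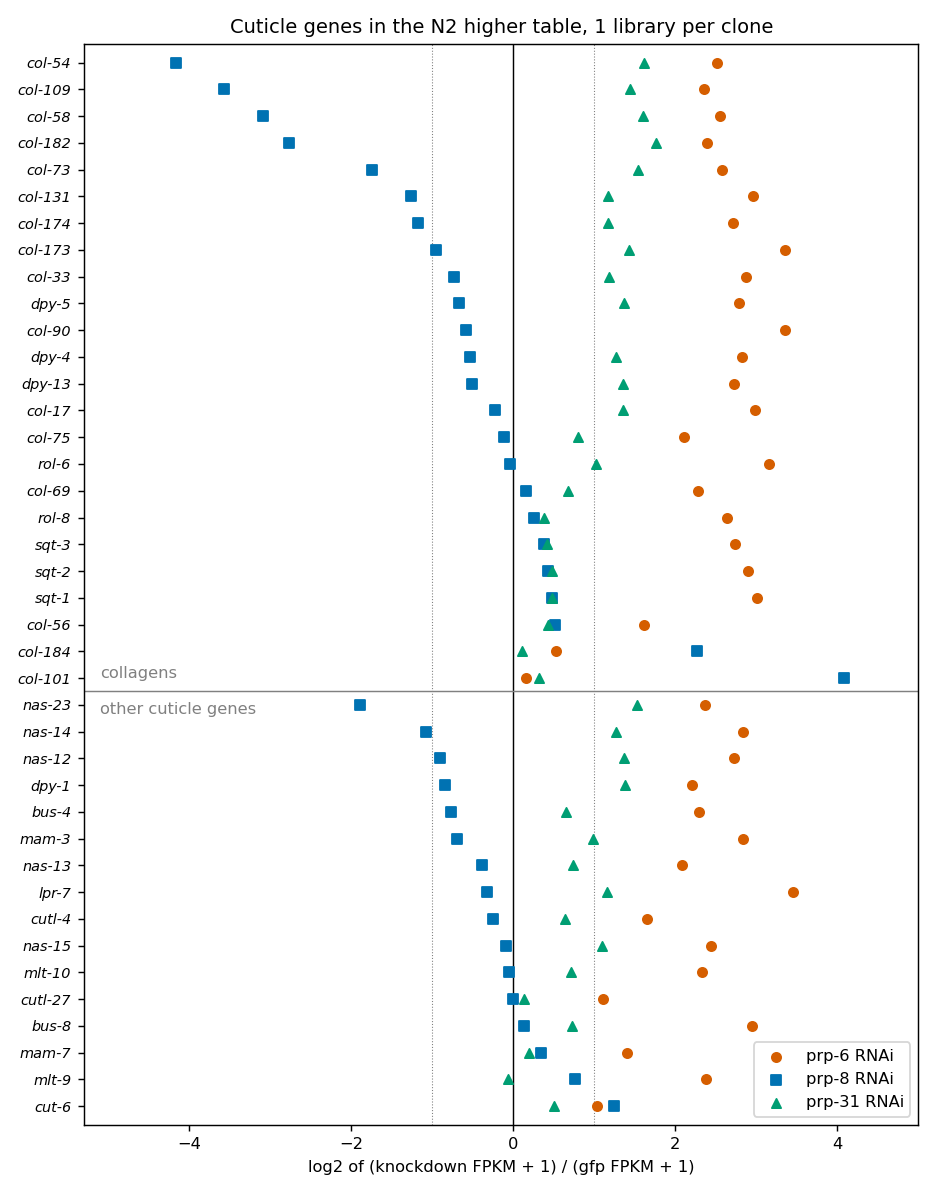
Log2((knockdown FPKM + 1)/(gfp FPKM + 1)) of each of the 40 cuticle and moulting genes of the N2 higher table, with 1 point per RNAi library (prp-6, prp-8, prp-31). The prp-6 points lie farthest to the right for most genes, from 0.15 to 3.45, while prp-8 points run from −4.17 for col-54 to 4.08 for col-101; col-90 with prp-31, listed at 0, is not drawn.

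The clones can also be set against each other without the gfp library. The choice of the table bears on this contrast too, since a gene under gfp with prp-8 was listed as higher only through the other clones, and the values are given as a description. The prp-6 library was at least 2-fold above the prp-8 library for 37 of the 40 genes, beside 53.1 percent of the table, and the median log2 ratio was 3.13, beside 1.43. It was at least 2-fold below for 2, beside 12 percent. The prp-31 library was at least 2-fold above the prp-8 library for 23 of the 40, beside 28.4 percent, with a median log2 ratio of 1.31, beside 0.03. The prp-6 library was at least 2-fold above the prp-31 library for 30 of the 40, beside 60.9 percent, with medians of 1.49 and 1.20, and col-90 is among the 30 through its listed 0. The prp-8 library was the lowest of the 4 for 27 of the 40 genes, beside 31.3 percent of the table, and the prp-6 library the highest for 37, beside 61.1 percent.

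Among the structural genes, 24 of the 40 are collagens, and 8 of these carry the name of a mutant shape: dumpy (dpy), roller (rol) or squat (sqt). These 8 were all abundant in the gfp library, at 114.8 to 324 FPKM. With prp-6 all 8 were at least 2-fold above gfp, beside 83.9 percent of the table. In the other libraries the dumpy collagens differed from the squat collagens and rol-8. The collagen dpy-5 (chromosome I) was at 324 FPKM under gfp RNAi, 2241 under prp-6, 203 under prp-8 and 833 under prp-31. Its log2 fold changes were thus 2.79, −0.67 and 1.36. The collagen dpy-13 (chromosome IV) was at 314, 2072, 219 and 806 FPKM in the same order, and dpy-4 at 297, 2105, 206 and 719. For these 3 dumpy collagens the prp-8 level lay under gfp, with log2 fold changes of −0.67 to −0.52, and the prp-31 level lay over 2-fold above it, at 1.27 to 1.36.

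The squat collagens behaved otherwise with prp-8 and prp-31. The collagen sqt-3 was at 269 FPKM under gfp RNAi, 1801 under prp-6, 349 under prp-8 and 359 under prp-31. The collagen sqt-1 was at 170, 1372, 238 and 237 FPKM, and sqt-2 at 143, 1071, 193 and 199. In each of the 3 the prp-8 and prp-31 libraries were nearly level, both slightly above gfp, with log2 fold changes of 0.37 to 0.48. The log2 ratio of prp-31 to prp-8 was −0.0036 to 0.05 in these 3 genes and 1.80 to 2.03 in dpy-4, dpy-5 and dpy-13. The roller collagen rol-8 was at 114.8 FPKM under gfp RNAi, 720 under prp-6, 137 under prp-8 and 150 under prp-31, close to the squat collagens. The collagen rol-6, whose dominant allele is a common transgene marker, was at 138, 1236, 134 and 282 FPKM, with log2 fold changes of 3.15, −0.05 and 1.03, between the dumpy and the squat collagens.

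**Figure D2:**
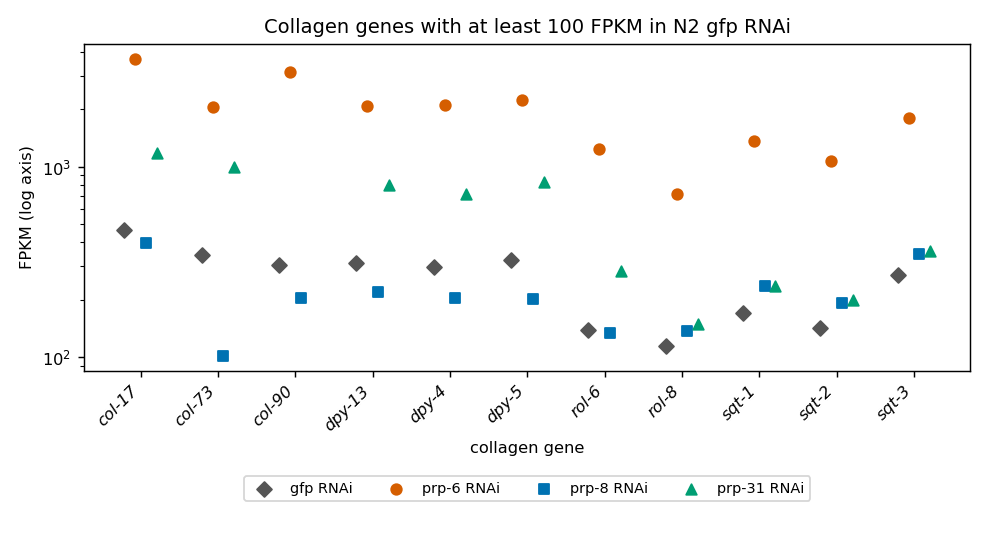
FPKM (log axis) in the 4 N2 libraries of the 11 collagens of the higher table with at least 100 FPKM in the gfp library, 1 point per library. All lie highest with prp-6; the dumpy collagens, col-17, col-73, col-90 and rol-6 lie lowest with prp-8 among the points drawn, col-73 at 102 FPKM, while sqt-1, sqt-2, sqt-3 and rol-8 lie lowest with gfp; col-90 with prp-31, listed at 0, is not drawn.

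Of the 16 col- genes of the higher table, 12 were below gfp with prp-8, beside 31.8 percent of the table. Of these, 7 were at least 2-fold below, beside 11.2 percent of the table. The deepest was col-54, at 74.2 FPKM under gfp RNAi, 428 under prp-6, 3.18 under prp-8 and 229 under prp-31, an 18-fold lower level with prp-8 on the scale used. The collagen col-109 was at 52.6, 272, 3.52 and 145 FPKM, and col-58 at 15, 93.1, 0.876 and 47.7. These genes showed opposite positions with 2 clones: 11.8-fold (col-109) and 8.55-fold (col-58) below gfp with prp-8, yet 5.09-fold and 5.87-fold above it with prp-6. The collagen col-182 was at 8.03 FPKM under gfp RNAi, 46.2 under prp-6, 0.328 under prp-8 and 29.6 under prp-31. The ratio of prp-6 to prp-8 was 103-fold for col-54, 60.3-fold for col-109, 50.2-fold for col-58 and 35.6-fold for col-182, the 4 largest among the col- genes. In the same 4 genes the prp-6 and prp-31 libraries differed by less than 2-fold, with log2 ratios of 0.63 to 0.95.

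The most abundant listed collagen of the higher table, col-17, was at 464 FPKM under gfp RNAi, 3687 under prp-6, 397 under prp-8 and 1183 under prp-31. It lies on chromosome II at 4866689 to 4867574 in the files' coordinates, 4742 bases from col-73, at 4872316 to 4873127. The collagen col-73 was at 342 FPKM under gfp RNAi, 2046 under prp-6, 102 under prp-8 and 994 under prp-31. These neighbours had like log2 fold changes with prp-6 (2.99 and 2.58) and prp-31 (1.35 and 1.54), but with prp-8 col-73 was 3.34-fold below gfp and col-17 1.17-fold below. The pooled FPKM that the authors' deposited table gives for col-17 is 0.47 of the mean of its single knockdown libraries and 0.52 of its gfp library. The collagen col-90 was at 305 FPKM under gfp RNAi, 3129 under prp-6 and 203 under prp-8. With prp-31 col-90 is listed at 0, although its pooled knockdown FPKM in the authors' deposited table is 2086, so no prp-31 fold is given for it.

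The collagens col-131, col-173, col-174, col-33 and col-75 had the same order of libraries as col-17 and col-73, at lower levels. They had 0.550 to 11.7 FPKM with gfp, 5.67 to 129 with prp-6, 0.432 to 5.57 with prp-8 and 1.69 to 33.1 with prp-31. The largest prp-6 fold among them was that of col-173, at 10.2-fold. In col-75 the prp-8 level was near gfp and the prp-31 level under 2-fold above it, at log2 fold changes of −0.11 and 0.80. The collagen col-69 was at 2.19 FPKM under gfp RNAi, 14.5 under prp-6, 2.56 under prp-8 and 4.08 under prp-31, so its prp-8 level was near gfp.

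A few collagens stood apart with prp-8 as the highest library. The collagen col-101 was at 1.08 FPKM under gfp RNAi, 1.32 under prp-6, 34.1 under prp-8 and 1.60 under prp-31. Only the prp-8 library of col-101 was high, 16.9-fold above gfp with 1 FPKM added to both levels, and on that scale the others lay within 1.25-fold of gfp. The collagen col-184 was at 2.61, 4.2, 16.5 and 2.89 FPKM, with the prp-8 library 4.83-fold above gfp. These are the 2 genes with prp-6 at least 2-fold below prp-8, and also the 2 that were under 2-fold above gfp with prp-6. The collagen col-56 was near the lower end of all values, at 0.0489 FPKM under gfp RNAi, 2.21 under prp-6, 0.499 under prp-8 and 0.413 under prp-31. In the authors' deposited table col-101 and col-56 are the N2 cuticle genes with a q-value below 0.05, both at 0.0268.

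**Figure D3:**
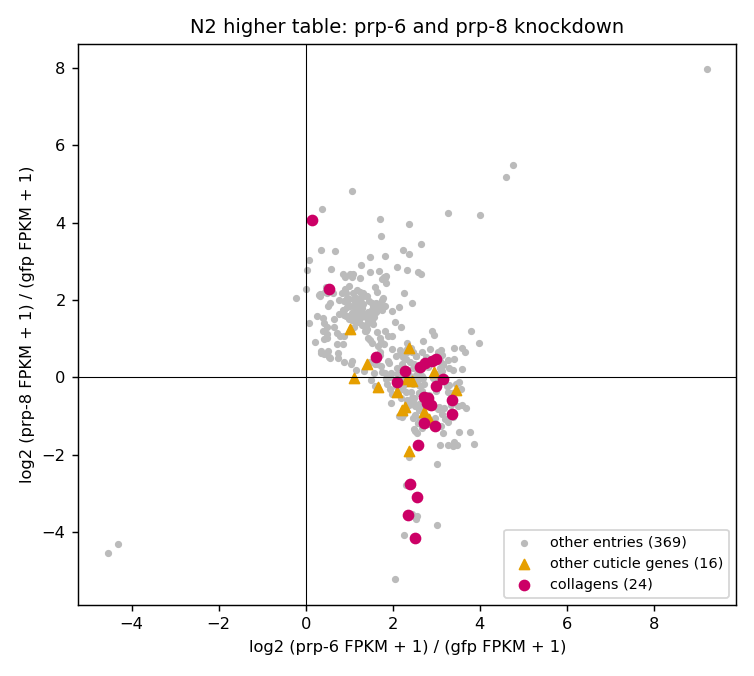
Log2 fold change with prp-8 RNAi (vertical axis) against that with prp-6 RNAi (horizontal axis) for all genes of the N2 higher table, with the 24 collagens and the 16 other cuticle genes marked; both axes share the gfp library. Most marked genes lie right of 1 on the prp-6 axis and under 0 on the prp-8 axis, an area they share with many unmarked genes. The collagens col-101 and col-184 lie apart from the other marked genes, at 4.08 and 2.27 on the prp-8 axis.

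Proteases and other secreted proteins of the higher table showed a similar order of libraries at lower levels. The 5 nas genes encode astacin-type zinc metalloproteases, a family some of whose members free the animal from the old cuticle. All 5 were at least 2-fold above gfp with prp-6, beside 83.9 percent of the table. With prp-8 all 5 were below gfp, beside 31.8 percent, and 2 of them at least 2-fold, beside 11.2 percent. The lowest with prp-8 was nas-23, at 3.35 FPKM under gfp RNAi, 21.5 under prp-6, 0.169 under prp-8 and 11.5 under prp-31. The protease gene nas-14 was at 4.12, 35.6, 1.44 and 11.3 FPKM, and nas-12 at 1.5, 15.6, 0.341 and 5.45. The gene nas-15 was at 7.28 FPKM under gfp RNAi, 44.0 under prp-6, 6.77 under prp-8 and 16.7 under prp-31, and nas-13 at 0.956, 7.31, 0.490 and 2.25. The medians of the 5 were 2.44, −0.90 and 1.26 on the log2 scale in the order prp-6, prp-8, prp-31.

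The moulting genes proper are mlt-10 and mlt-9, expressed in the epidermis and named for animals that fail to shed the old cuticle. The gene mlt-10 was at 28.1 FPKM under gfp RNAi, 145 under prp-6, 27.1 under prp-8 and 46.6 under prp-31. The gene mlt-9 was at 18, 97.5, 31 and 17.1 FPKM. Both were over 5-fold above gfp with prp-6 (5.01-fold and 5.2-fold), and neither reached 2-fold in either direction with the other clones. Apart from col-90, mlt-9 was the cuticle gene of this table whose prp-31 level was below gfp, at a log2 fold change of −0.07.

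The bus genes are named for worms that do not swell at the tail on a bacterial pathogen, and several act on the surface coat. The glycosyltransferase-like gene bus-8 was at 19.9 FPKM under gfp RNAi, 160 under prp-6, 21.9 under prp-8 and 33.4 under prp-31. The gene bus-4, also glycosyltransferase-like, was at 5.45, 30.6, 2.78 and 9.16 FPKM. Both were high with prp-6 alone, at log2 fold changes of 2.95 and 2.29, and under 2-fold from gfp with the other clones. The lipocalin-related gene lpr-7 was at 2.70 FPKM under gfp RNAi, 39.6 under prp-6, 1.96 under prp-8 and 7.26 under prp-31. With the pseudocount of 1 FPKM this was the largest prp-6 fold of the 40, at 11-fold, but the rank depends on the pseudocount. With 0.1 FPKM col-56 lay above lpr-7, at log2 fold changes of 3.95 and 3.82. With 10 FPKM genes such as col-90 did, at 3.32 against 1.96. The gene dpy-1, a dumpy gene that is not a collagen, was at 4.64, 25.0, 2.14 and 13.6 FPKM, and so lay with the dumpy collagens in its log2 fold changes of 2.20, −0.84 and 1.38.

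The remaining genes of the table were low. The gene mam-3, of a set named for the MAM domain, was at 2.57 FPKM under gfp RNAi, 24.5 under prp-6, 1.21 under prp-8 and 6.08 under prp-31, and mam-7 at 0.285, 2.40, 0.626 and 0.469. Cuticlins are insoluble cuticle proteins with a zona pellucida domain. The cuticlin-like gene cutl-4 was at 0.242, 2.90, 0.0472 and 0.930 FPKM, and cutl-27 at 0.186, 1.54, 0.178 and 0.293. The cuticlin gene cut-6 was at 0.492 FPKM under gfp RNAi, 2.04 under prp-6, 2.53 under prp-8 and 1.10 under prp-31. It was the only gene of the 40 at least 2-fold above gfp with both prp-6 and prp-8 (log2 fold changes of 1.03 and 1.24), at levels where the pseudocount weighs heavily.

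Collagens and the other cuticle genes differed in gene structure, as read from the Ensembl annotation of WBcel235, which may not be the one that the submitters used. Of the 63 entries, 62 had a gene there and col-182 did not. The interval given in the files lay inside the matched gene for 59 of the 62. For mlt-9, dpy-10 and bus-8, which was matched to the annotated bus-8B, it did not, so their structure is less certain. The collagens of the N2 higher table had a median of 2 introns (range 0 to 4), the 16 other cuticle genes a median of 8 (range 5 to 19), and the other protein-coding genes of the table a median of 4 (range 0 to 21). The median log2 fold changes of the 24 collagens were 2.72, −0.52 and 1.17 in the order prp-6, prp-8, prp-31, and those of the 16 others 2.35, −0.28 and 0.73. The median gfp level was 63.4 FPKM in the collagens and 3.03 in the others, and the pseudocount understates changes of low genes. A link between gene structure and these values was not tested. The intervals given in the files covered under 50 percent of the annotated gene for 25 of 62 entries. The 59 genes were spread over all chromosomes, with 7 on I, 13 on II, 5 on III, 16 on IV, 6 on V and 12 on X.

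The N2 lower table held 4 cuticle genes, with patterns that differed from each other. The collagen col-93 was at 730 FPKM under gfp RNAi, 256 under prp-6, 81.3 under prp-8 and 868 under prp-31, so it was 8.89-fold below gfp with prp-8 and slightly above it with prp-31. The pooled values for col-93 in the authors' deposited table are 20.2 FPKM for the knockdowns and 63.0 for gfp, 0.05 and 0.09 of the single libraries, which leaves its level uncertain. The lipocalin-related gene lpr-6 was at 114.98 FPKM under gfp RNAi, 46.5 under prp-6, 106 under prp-8 and 15.9 under prp-31. The prp-31 library of lpr-6 was 6.88-fold below gfp and the prp-8 library nearly level with it. The gene bus-1, related to acyltransferases, was at 3.33, 1.11, 1.30 and 0.472 FPKM, and the collagen col-139 at 1.98, 0.852, 0.145 and 0.599. At least 2-fold below gfp were 3 of the 4 with prp-6 (93.9 percent of the 66 genes), 2 with prp-8 (87.9 percent) and 2 with prp-31 (16.7 percent).

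In smg-1 larvae few cuticle genes were listed, and for the N2 genes that are not in a smg-1 table no level can be read. Over both smg-1 tables, 0 of 11 cuticle genes, dpy-22 included, were at least 2-fold above gfp with prp-6, where 29.3 percent of all 485 listed genes were. At least 2-fold below with prp-6 were 4, beside 16.1 percent. With prp-31, 6 of 11 lay 2-fold or more under gfp, beside 11.5 percent, and 0 above, beside 4.74 percent. With prp-8, 2 were at least 2-fold above, beside 61 percent, and 1 below, beside 21 percent. The median log2 fold changes were −0.60, −0.25 and −1.14 in the order prp-6, prp-8, prp-31, beside 0.71, 1.27 and 0.27 over all listed genes. Of the 11, 7 were in the lower table, beside 139 of the 485 genes, so these contrasts depend on the split between tables. Within the lower table the medians were −1.01, −0.58 and −1.20, beside −1.08, −1.32 and −0.70. Within the higher table they were 0.56, 1.19 and 0.28, beside 0.89, 1.57 and 0.40.

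The 7 cuticle genes of the smg-1 lower table were a mixed set of collagens, a protease and a moulting gene. The annular furrow collagen dpy-9 was the most abundant, at 273 FPKM under gfp RNAi, 102 under prp-6, 254 under prp-8 and 120 under prp-31. The collagen col-128 was also highest with gfp and next highest with prp-8, at 61.5, 23.5, 51.4 and 23.1 FPKM. In both, the prp-6 and prp-31 libraries were 2.25-fold to 2.66-fold below gfp and the prp-8 library stayed within 1.19-fold of it. The collagen col-38 was at 8.15 FPKM under gfp RNAi, 2.99 under prp-6, 2.93 under prp-8 and 2.40 under prp-31, and was the cuticle gene of smg-1 at least 2-fold below gfp with each clone (18.7 percent of the 139 genes of the table were). In the authors' deposited table for smg-1, col-38 and col-101 had the lowest q-value of the cuticle genes, 0.0234.

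The protease gene nas-37, needed to shed the old cuticle, was at 37.8 FPKM under gfp RNAi, 18.3 under prp-6, 23.9 under prp-8 and 16.7 under prp-31. The collagen col-153 was at 48.5, 31.6, 35.8 and 19.7 FPKM, and col-49 at 1.52, 0.276, 0.680 and 0.653. The moulting gene mlt-10 was at 174 FPKM under gfp RNAi, 120 under prp-6, 105 under prp-8 and 75.5 under prp-31. Within this table, 4 of the 7 lay 2-fold or more under gfp with prp-6 (56.1 percent of 139), 1 with prp-8 (71.2 percent) and 6 with prp-31 (39.6 percent). The median log2 ratio of prp-31 to prp-8 was −0.50 in the 7 genes and 0.60 over the table.

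The smg-1 higher table held 3 low collagens and dpy-22. The collagen col-101 was at 2.55 FPKM under gfp RNAi, 3.15 under prp-6, 26.3 under prp-8 and 3.36 under prp-31, high with prp-8 alone. The collagen col-140 was at 0.347, 0.989, 2.73 and 0.542 FPKM, and col-56 at 0.519, 1.39, 1.5 and 0.820. The gene dpy-22 was at 5.38, 8.33, 11 and 9.37 FPKM; it meets the naming rule but encodes a subunit of the Mediator complex of transcription and not a cuticle protein. With prp-8, 2 of the 4 were at least 2-fold above gfp, beside 85.3 percent of the 346 genes of the table, and with prp-6 0, beside 41 percent.

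**Figure D4:**
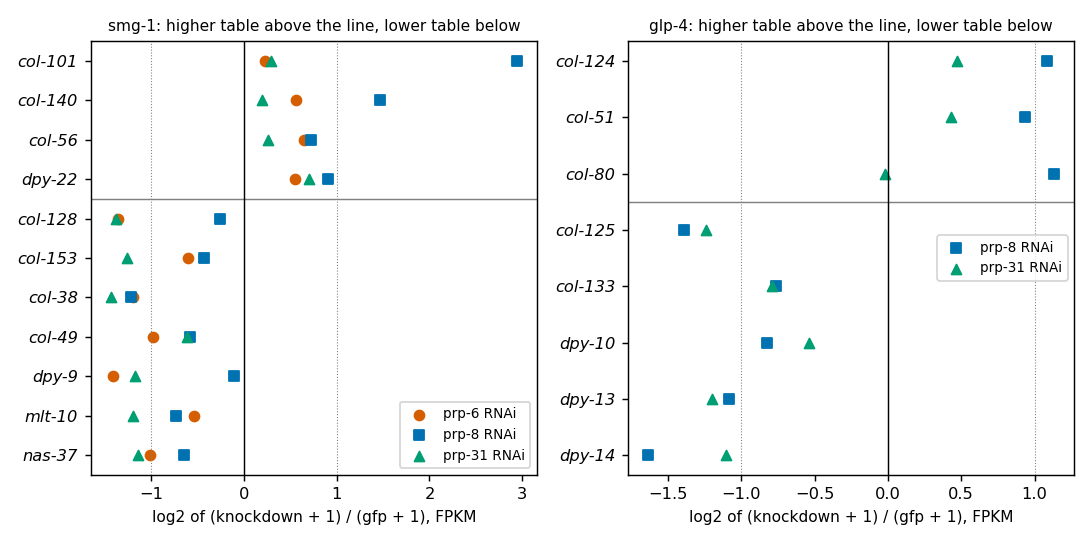
Log2((knockdown FPKM + 1)/(gfp FPKM + 1)) of the 11 cuticle entries of smg-1 larvae, dpy-22 included, and the 8 of glp-4 adults, with 1 point per RNAi library. In smg-1 the largest value is that of col-101 with prp-8, at 2.94, and dpy-9 and col-128 lie nearest 0 with prp-8, at −0.10 and −0.25; in glp-4 the prp-31 points of the higher genes lie nearer 0 than the prp-8 points.

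In glp-4 adults, 8 collagens were listed and no other cuticle gene. The abundant col-124 was at 228 FPKM under gfp RNAi, 483 under prp-8 and 316 under prp-31. The collagen col-80 was at 189 FPKM under gfp RNAi, 415 under prp-8 and 186 under prp-31, and col-51 at 1.15, 3.12 and 1.90. These 3 of the higher table lay highest with prp-8. With prp-8, 2 of the 3 were at least 2-fold above gfp, beside 25.9 percent of 58 genes, and with prp-31 0, beside 31 percent.

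The 5 collagens of the glp-4 lower table were all scarce, under 4 FPKM in the gfp library. The collagen dpy-14 was at 3.92 FPKM under gfp RNAi, 0.585 under prp-8 and 1.29 under prp-31. The collagen col-125 was at 2.54, 0.348 and 0.495 FPKM, and dpy-13 at 1.66, 0.257 and 0.157. The annular furrow collagen dpy-10 was at 0.846, 0.0422 and 0.273 FPKM, and col-133 at 1.22, 0.308 and 0.288. At least 2-fold below gfp were 3 of the 5 with prp-8 (86.4 percent of 88 genes), 3 with prp-31 (10.2 percent) and 3 with both (6.82 percent). At these low levels the pseudocount set the counts: with 0.1 FPKM all 5 were at least 2-fold below with each clone, and with 10 FPKM 0 were. The prp-31 library was at least 2-fold above the prp-8 library for 0 of the 5, where 61.4 percent of the table was, and the median log2 ratio was 0.15, beside 1.5. The pseudocount holds these ratios near 0 too: a 2-fold ratio needs at least 1 FPKM with prp-31, which only dpy-14 had. This contrast with the table therefore cannot show whether these collagens differ from it. Germline and oocyte markers, a list of 28 genes, numbered 8 in this table, and their summed level was 232 FPKM under gfp RNAi, 29.2 under prp-8 and 177 under prp-31; their part in the collagen values was not tested.

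Few cuticle genes were listed in more than 1 strain. Between the larval strains, col-101, col-56 and mlt-10 were shared, which is 6.82 percent of the N2 and 27.3 percent of the smg-1 cuticle genes; of all listed genes, 147 were shared, 30.9 percent and 30.3 percent. The collagen col-101 was high with prp-8 alone in both strains, at 34.1 FPKM in N2 and 26.3 in smg-1. The collagen col-56 was above gfp with each clone in both strains, from gfp levels of 0.0489 and 0.519 FPKM.

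The gene mlt-10 was in the higher table of N2 and the lower table of smg-1. Its gfp level was 6.20 times higher in smg-1 (174 against 28.1 FPKM), while the prp-6 levels were 120 and 145 FPKM. Of the 147 shared genes 6 lay in opposite tables, and 17 had a gfp level at least 2-fold higher in smg-1. The collagen dpy-13 was in the higher table of N2 larvae and the lower table of glp-4 adults, from gfp levels of 314 and 1.66 FPKM, 189 times apart. The strains in that comparison also differ in stage, temperature, feeding and time on the clones.

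**Figure D5:**
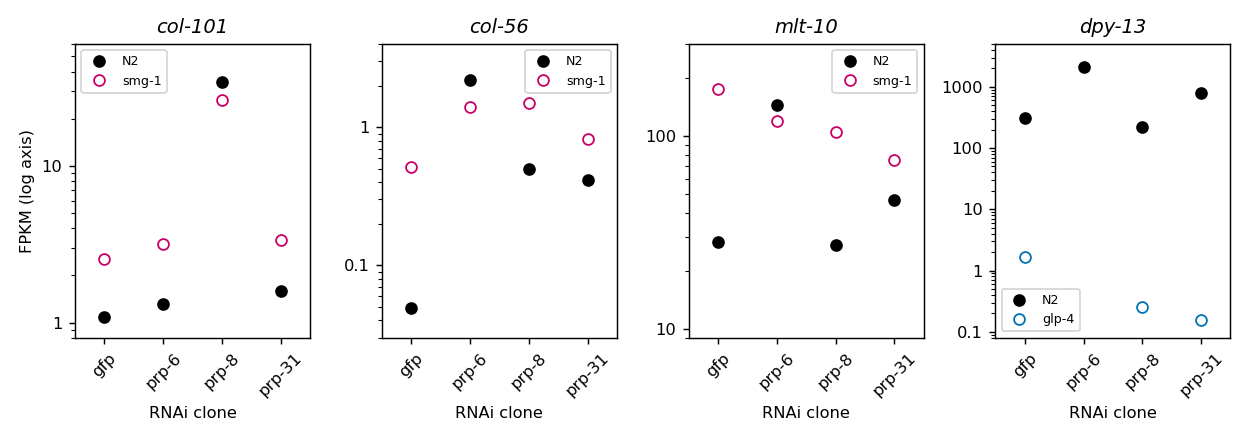
FPKM (log axis, separate scale for each gene) in every library of the cuticle genes listed in more than 1 strain; filled points are N2, open points smg-1 (col-101, col-56, mlt-10) or glp-4 (dpy-13, no prp-6 library). The prp-8 points of col-101 stand out in both strains, and the strains of mlt-10 lie farthest apart in gfp, at 28.1 and 174 FPKM.

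Other genes outside the naming rule were counted from lists chosen by name. Hedgehog-related and patched-related proteins, which in the worm are mostly secreted or membrane proteins of the epidermis, gave 16 genes in the N2 higher table and 0 in the lower. All 16 were at least 2-fold above gfp in the prp-6 library, 0 in the prp-8 and 7 in the prp-31 library, beside 83.9, 42.3 and 28.9 percent of the table, with median log2 fold changes of 2.54, −0.25 and 0.91. The lowest against gfp with prp-8 was grl-16, at 109 FPKM under gfp RNAi, 521 under prp-6, 5.45 under prp-8 and 305 under prp-31, close in shape to col-54 and chosen for mention after its values were seen. In smg-1 the list gave wrt-8 in the higher table (9.95, 38.8, 16.8 and 13.6 FPKM in the usual order) and grl-5 (153, 118, 64.2 and 44.3 FPKM) and wrt-6 (18.1, 12.8, 11.7 and 7.46 FPKM) in the lower.

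The abu and pqn genes, several of which encode proteins of the pharyngeal cuticle, gave 5 genes in the N2 higher table, with medians of 2.97, −0.14 and 1.13. They were pqn-32 (17.9 FPKM with gfp and 200 with prp-6), abu-13 (19.1 and 171), abu-12 (3.90 and 37.3), pqn-13 (5.65 and 35.7) and pqn-26 (4.22 and 28.2). In smg-1, phat-5 and pqn-63 were in the higher table, phat-5 highest with prp-8 (18.1 FPKM, gfp 2.69) and pqn-63 highest with prp-6 (22.3 FPKM, gfp 7.70). Both strains thus held listed genes of this kind, with different members.

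Genes of cuticle synthesis and remodelling in the N2 higher table were phg-1, bah-1, che-14 and the chitin synthase gene chs-2. The level of bah-1 was 5.37 FPKM under gfp RNAi, 47.1 under prp-6, 5.26 under prp-8 and 8.11 under prp-31. The level of phg-1 was 19.3, 112, 22.9 and 39.1 FPKM, that of che-14 3.23, 17.2, 3.98 and 3.61, and that of chs-2 2.93, 13.4, 2.49 and 5.29. All 4 were highest with prp-6, beside 61.1 percent of the table. The prolyl 4-hydroxylase gene phy-2, whose enzyme modifies collagen chains, is in the smg-1 lower table, listed at 0 with gfp, prp-6 and prp-31 and at 54.7 FPKM with prp-8, so no fold is given.

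Among regulators of moulting and larval timing, bed-3, a zinc finger gene needed for moulting, was at 6.95 FPKM under gfp RNAi, 90.2 under prp-6, 6.30 under prp-8 and 12.7 under prp-31 in N2. The nuclear hormone receptor gene nhr-25 was at 6.55, 23.5, 10.3 and 10.7 FPKM. The cofactor gene mab-10, which acts at the passage from larva to adult, was in the lower table of both larval strains, at 6.38, 1.75, 3.16 and 1.69 FPKM in N2 and 8.89, 2.95, 6.28 and 4.57 in smg-1. The gene mup-4, for an epidermal attachment protein, was at 25.3, 121, 20.2 and 57.2 FPKM in N2.

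Markers of the epidermis (hypodermis and seam), a list of 15 genes, gave mup-4, nhr-25 and che-14 in the N2 higher table and none in another table. Their summed level was 35.0 FPKM under gfp RNAi, 161 under prp-6, 34.5 under prp-8 and 71.6 under prp-31. Of the gfp sum, mup-4 gave 25.3 FPKM. With prp-8, mup-4 lay under gfp (log2 fold change of −0.31), while nhr-25 and che-14 lay above it (0.58 and 0.24). Being in the higher table sets a rise with knockdown on balance, and the part of these markers in the cuticle values was not tested. No marker of body wall muscle or neurons was listed in any strain. Of the other marker lists, the intestine list gave vit-6 and the pharynx list phat-5, both in smg-1. The germline list gave cpg-2 in the higher and glh-2 and spn-4 in the lower table of N2, and cpg-2 and syp-1 in those of smg-1.

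The genes with a public name outside the rule whose log2 fold changes lay nearest to the median of the N2 collagens (2.68, −0.56 and 1.09 over 26 collagens of both tables) were pqn-26, ptr-6, ptr-18, fip-6 and grl-22. Their distances over the 3 knockdowns, which share the gfp library, were 0.20 to 0.38 on the log2 scale. In smg-1, where the 8 collagens had medians of −0.79, −0.18 and −0.89, the nearest were cnc-3, mltn-9, cdk-1, wrt-6 and mab-10, at distances of 0.29 to 0.60.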

How the data were processed

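Whole-worm RNA was measured in 11 libraries, 1 per group, grouped by the labels. The processing was done by Cuffdiff and Cufflinks, per the submitters' processing notes; the sources used here give no version, aligner, genome build or annotation. Per the file headers, the authors deposited FPKM of each library and of pooled libraries for selected genes. The file headers also name deposited log2 fold changes, each with its P-value and q-value. The pooled columns have another scale: the deposited log2 fold changes exceed those of the single libraries by a median of −0.08 (N2), −0.03 (smg-1) and 0.13 (glp-4). An exact 0 can be a failed estimate; 61 entries have one, among them 1 cuticle gene.

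From the single-library FPKM, log2 ratios with a pseudocount of 1 FPKM were computed, which understates changes of low genes. A call is a change of at least 2-fold. No low-value filter was used and no test was made. Counts and medians of the cuticle genes stand beside those of all genes of the same table.

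The genes, the 5 gene lists and the 6 marker lists were chosen with earlier results of these data known. The naming rule prints every library for all genes outside the col- prefix; for col- genes, for all in tables with at most 8, and otherwise for the 6 most abundant with gfp, the 4 largest and 4 smallest ratios of prp-6 to prp-8, and those shared between strains. Planned descriptions of protein and promoter sequence were not made, since no sequence was used here.

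Alternatives were pseudocounts of 0.1 and 10 FPKM, thresholds of 1.5-fold and 4-fold, and centring on the median over both tables of a strain. Further ones were a mean of at least 1 FPKM, collagens alone, and leaving out entries with a 0, a knockdown, or col-90 and col-93. The code ran under Python 3.11.15 with pandas 2.3.3, numpy 2.4.6 and matplotlib 3.10.9 and was tested on simulated data.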

Additional observations from a re-analysis of the deposited data

Results flagged for a closer look

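Effects in different strains were set against each other for the genes listed in more than 1 strain. For mlt-10 every knockdown of smg-1 lay below its gfp library, and with prp-6 and prp-31 the N2 library lay above its own. The log2 fold change with prp-6 was 2.32 in N2 and −0.53 in smg-1, a difference of smg-1 minus N2 of −2.86. With prp-31 the values were 0.71 and −1.20, a difference of −1.91. The collagen dpy-13 had a log2 fold change with prp-31 of 1.36 in N2 larvae and −1.20 in glp-4 adults, a difference of −2.56. With 1 library per group these differences were not tested.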

How the results depend on the processing

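With 1 library per group no clone has a replicate spread, and no test was made. No paired analysis was possible because each group has 1 library. No called value changed sign. Without entries that hold a 0, or without col-90 and col-93, an alternative chosen after seeing the data, no count or median changed its call. For each value below that moved, the cause was not tested unless the setting itself gives it.

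Counts are over both tables of a strain. At 1.5-fold, 19 N2 genes were below gfp with prp-8 and 5 glp-4 genes; in smg-1, 1 was above with prp-31, 1 above with prp-6, and with prp-8 4 above and 3 below. At 4-fold, in N2, 0 were above with prp-31, 0 below with prp-6 and 5 below with prp-8; in glp-4, 0 were below with prp-31 and 0 above and 0 below with prp-8; in smg-1, 0 were below with prp-31, 0 with prp-6 and 0 with prp-8, and 1 above with prp-8. 

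With values centred on the median over both tables of a strain, 3 N2 genes were above with prp-31. With prp-6, 16 N2 genes were above and 6 below, and with prp-8, 19 were below. In glp-4, 0 were below with either clone. In smg-1, 7 were below with prp-6, and with prp-8 1 was above and 7 below. Centred medians were 0.97 for prp-31 over prp-8, 0.33 for prp-6 over prp-31 and 0.76 for prp-6 in N2, and −1.31 for prp-6 and −1.52 for prp-8 in smg-1. For collagens alone, in N2, 1 was below with prp-31, 22 above with prp-6 and 1 below; the prp-31 medians were 1.09 in N2 and −0.89 in smg-1. With a mean of at least 1 FPKM the N2 prp-31 median over both tables was 1.01.

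With a pseudocount of 0.1, genes changed with every knockdown were 2 above and 2 below in N2, 5 below in glp-4 and 2 below in smg-1; 17 N2 genes were below with prp-8, 5 glp-4 genes with prp-31 and 5 with prp-8, and in smg-1, 2 were above with prp-6, 4 above and 2 below with prp-8; the prp-31 medians were 1.20 in N2 and −1.44 in glp-4, where that of prp-8 was −2.0. With a pseudocount of 10, those below with every knockdown were 0 in glp-4 and 0 in smg-1; in N2, 9 were above with prp-31 and 5 below with prp-8; in glp-4, 0 were below with prp-31 and 0 with prp-8; in smg-1, 3 were below with prp-31, 2 with prp-6 and 0 with prp-8, and 1 above with prp-8; the medians were 0.55 for prp-31 over prp-8 in N2 and −0.55 for prp-31 in smg-1.

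Without the prp-31 library, genes changed with every other knockdown were 1 above and 1 below in N2 and 2 above in glp-4; without prp-8 they were 20 above and 2 below in N2 and 4 below in smg-1.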

Other observations

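The 6 genes in the higher table of N2 and the lower table of smg-1 were mlt-10, grl-5, lips-9, C38C6.3, H23N18.5 and ZC434.3. All 6 had a higher gfp level in smg-1, by 6.20 to 10.3 times, and their median log2 ratio of smg-1 gfp to N2 gfp was 2.88. For the 124 genes in the higher table of both strains the median was 0.05, and 11 of them had a gfp level at least 2-fold higher in smg-1. The hedgehog-related gene grl-5 was at 14.8 FPKM with gfp and 201 with prp-6 in N2, and at 153 and 118 in smg-1, the same arrangement as that of mlt-10. These values were looked up after the shared genes had been seen. The 6 genes were picked by their position against gfp in both strains. A higher gfp level in smg-1 was thus favoured by the choice itself, and the contrast with the 124 genes is a description only.

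In N2, col-54, col-109, col-58, col-182 and grl-16 had prp-6 and prp-31 levels 2.71-fold to 5.87-fold above gfp and prp-8 levels 6.80-fold to 18-fold below it. This group was put together after its values were seen and gets no test.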
